A study of Mus musculus with 55 samples.

Results

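The injured optic nerve head (ONH) was compared with the ONH of the other eye of the same mice 3 days after an optic nerve crush. Of the 55 samples of the series, 10 belong to this comparison by their labels, 5 crushed and 5 contralateral controls. All came from female C57Bl/6 mice, which were 6 to 8 weeks old at the surgery. The left optic nerve was crushed for 10 s about 1 mm behind the globe, and the right optic nerve was not crushed. Every sample pooled 2 ONHs, so that the spread between samples is that between pools. By the study's methods the left and right eyes of 2 mice gave a pair of samples. A crushed and a contralateral sample with the same replicate number were taken as such a pair, which the labels do not state. The 5 samples of naïve mice of the same strain, which had no surgery on either eye, served as a second reference. The crushed and contralateral samples at 1 day, 1 week and 3 weeks, 5 each, were used to ask where the effect of the crush at 3 days differed from that at other times.

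The ONH is where the axons of the retinal ganglion cells gather and leave the eye. In the mouse the axons run unmyelinated through a mesh of astrocytes, the glial lamina, and are wrapped by oligodendrocytes only behind it. When an optic nerve is crushed the axons degenerate, resident microglia and astrocytes react, and monocytes and neutrophils can enter from the blood. Macrophages take up the debris, the extracellular matrix is remodelled, and cells that divide pass through DNA replication, which copies the genome, and mitosis, which separates the copies. An ONH sample holds all of these cell types, so a lower level of a transcript may reflect fewer cells of a type or less RNA per cell, which cannot be told apart here, and the same holds for a higher level.

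Messenger RNA was read on Affymetrix Mouse Genome 430A 2.0 arrays, and the values are linear intensities of probe sets, sets of short probes that match 1 transcript. All differences are log2 values of crushed over contralateral intensity, so that 1 is a 2-fold and -1 a 0.5-fold level, and intensities below 20 were set to 20 before the logarithm was taken. A difference was called, and is described as a rise or a fall, at an adjusted p under 0.05 in limma and at least 2-fold. The fit held the 40 crushed and contralateral arrays from 1 day to 3 weeks with each pair of samples as a block. A probe set was tested if it reached 50 on at least 5 of these arrays. A member of a gene list that is dim in controls can pass only through the samples in which it is high, so that counts of immune cell genes, chemokines and cytokines describe the members tested and not the whole list. A gene with several probe sets is represented by the brightest. Where control values lay below 20, the difference is limited by the floor. On each array at 3 days between 17562 and 18195 of the 22626 probe sets were at 50 or more. The defining markers of the labelled tissue were bright on both sides, with Gfap of astrocytes at 8714 to 11513 and Mbp of myelin at 10275 to 14585 over the 10 arrays. Transcripts of rods and cones, which the ONH itself does not hold, differed between arrays of the same side. The rod arrestin Sag stood at 116, 2146, 11132, 616 and 1215 in contralateral samples 1 to 5 and at 2217, 12117, 1921, 252 and 7495 in crushed samples 1 to 5. The sums over 15 photoreceptor genes ran from 1264 to 79253 in contralateral and from 1784 to 97289 in crushed samples, and limma called none of the 15, with 0 at an unadjusted p under 0.05. All 15 differences were positive, with a median of 0.90, which was 0.02 without replicate 2 and 2.02 without replicate 3.

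At 3 days 1274 probe sets rose and 424 fell, which is 6.6% and 2.2% of the 19313 tested. At the level of genes 756 of 10768 rose (7.02%) and 267 fell (2.48%), and 977 of these 1023 had the same sign in 5 of 5 pairs. Since the calls were made on these same pairs, the 977 are not independent evidence. All 5 crushed samples lay above all 5 contralateral samples for 2237 genes (20.8%) and below them for 1195 (11.1%). The crushed arrays were brighter as a whole, with array medians of 522 to 547 against 459 to 502, although the median difference of all probe sets was only 0.04. The split between rises and falls moved with the scaling of the arrays: 75.0% of the called probe sets rose with the deposited values, 63.5% after quantile normalization (1049 up and 603 down) and 62.2% after a shift to a common median (1040 up and 633 down). These scalings lowered the difference of the typical probe set by 0.1 and 0.14, and the values below are those of the deposited scale.

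**Figure D1:**
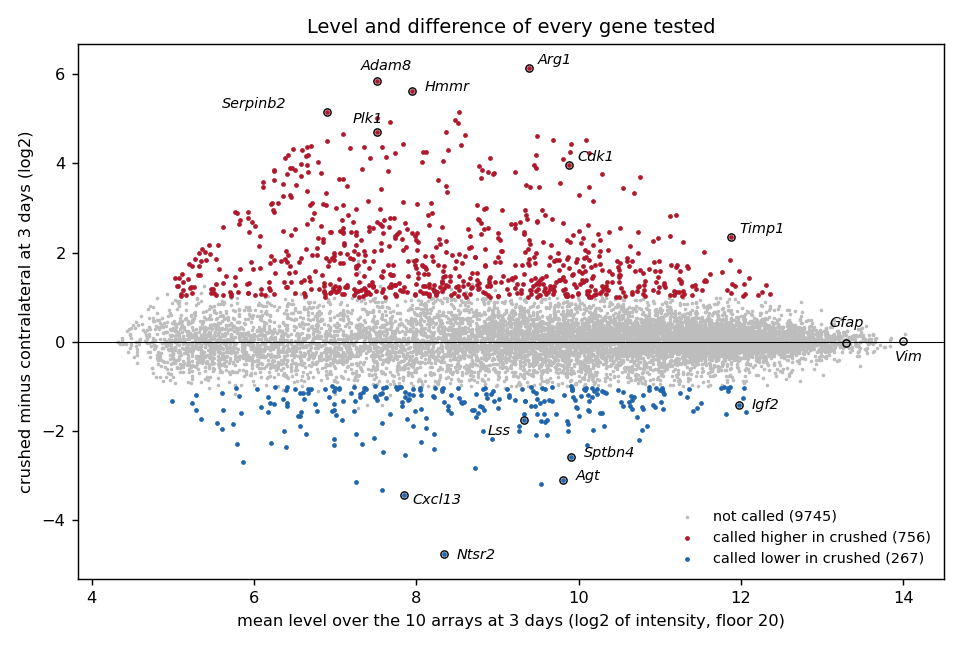
Mean log2 intensity over the 10 arrays at 3 days (horizontal) against the log2 difference between crushed and contralateral samples (vertical) for the 10768 genes tested, with 756 called higher in red, 267 called lower in blue and the others in grey. The rises reach 6.13 (Arg1) and the falls -4.77 (Ntsr2), while the very bright glial genes Gfap and Vim lie at 0.

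The largest rise of all genes was that of Arg1. Arg1, the arginase of alternatively activated macrophages, had intensities of 86.0, 88.8, 100, 65.3 and 65.9 in contralateral samples 1 to 5 and 7070, 7263, 4409, 3849 and 6482 in crushed samples 1 to 5. Every crushed sample was thus far above every contralateral sample, and the difference was 6.13 (SE 0.22) with a limma adjusted p of 7e-14. Adam8, a membrane metalloprotease of leukocytes, rose from 24.3 ± 7.07 (SD, n = 5) to 1414 ± 286 (SD, n = 5), a difference of 5.85 (SE 0.29). The 12 largest rises with the same sign in every pair also held Chil3, the lectin Ym1 of macrophages, Serpinb2, which inhibits plasminogen activators, S100a9, a calcium-binding protein of neutrophils, and 7 genes of cell division. Serpinb2 was below 20 in all 5 contralateral samples and stood at 1381, 1135, 94.1, 1117 and 1103 in crushed samples 1 to 5. Its difference of 5.15 (SE 0.50) is set by the floor on the contralateral side, and crushed sample 3 was lower than the other 4 by more than 10-fold.

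Most genes of mitosis rose. Of 47 mitosis genes tested, 43 rose and none fell, against 7.02% of all genes that rose, and their median difference was 3.96 against 0.04 for all probe sets. The list held the cyclins and kinases that start mitosis, the spindle motors, and the kinetochore and checkpoint proteins that hold chromosomes until all are attached. Plk1, a kinase that drives entry into mitosis and spindle assembly, had 24.0, 32.7, 58.4, 40 and 31.9 in contralateral and 925, 835, 910, 732 and 1336 in crushed samples 1 to 5. The groups were separated by more than 10-fold, with naïve samples at 35.3 ± 10.2 (SD, n = 5), and the difference was 4.70 (SE 0.29) (limma, adjusted p = 1.3e-10). Ccnb2, a B-type cyclin that activates the mitotic kinase, had 43.2, 85.1, 56.3, 76.1 and 81.4 in contralateral and 2097, 1752, 2138, 1923 and 2081 in crushed samples. Its crushed values lay within a narrow range, and its difference was 4.91 (SE 0.22) (limma, adjusted p = 1e-12). Cdk1, the mitotic kinase itself, was already measurable in uninjured tissue, with 241 ± 39.8 (SD, n = 5) in contralateral and 241 ± 51.8 (SD, n = 5) in naïve samples, and rose to 3746 ± 568 (SD, n = 5). The largest difference of the list was that of Hmmr, a hyaluronan receptor that also binds the spindle, with 5.62 (SE 0.33), although its 4 probe sets, all called higher, ranged from 2.37 to 5.62. Bub1, a checkpoint kinase of the kinetochore, had 5.01 (SE 0.31), Cdca3, which marks mitotic inhibitors for destruction, 4.97 (SE 0.27), and Aurkb, the Aurora kinase of chromosome alignment, 4.66 (SE 0.26). Ckap2, a spindle protein outside the list, had 4.92 (SE 0.28). Mki67, the antigen used to stain dividing cells, rose by 4.25 (SE 0.22), and Cdc20, which activates the ligase that ends mitosis, by 3.81 (SE 0.19).

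The 4 members that were not called were Anln, Kif4, Cdc25b and Pttg1. Anln, a scaffold of the cleavage furrow that oligodendrocytes also express, had 1822 ± 327 (SD, n = 5) in contralateral and 2185 ± 69.9 (SD, n = 5) in crushed samples. Cdc25b, a phosphatase that activates Cdk1, was higher in every pair with 0.72 (SE 0.11), which is under the 2-fold threshold. Pttg1, the securin that restrains the separation of sister chromatids, had 4991, 5593, 5096, 5274 and 5056 in contralateral and 4762, 4094, 4310, 4303 and 4462 in crushed samples. It was lower in all crushed samples, with -0.25 (SE 0.08), but did not reach 2-fold.

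Genes of DNA replication had a smaller median difference. Of 43 tested, 30 rose and none fell, where 7.02% and 2.48% of all genes did, and the median was 1.43. The difference was positive for 43 of 43 with the deposited values. It was positive for 41 after quantile normalization and for 41 after a shift to a common median. Tk1, the thymidine kinase of S phase, led with 4.40 (SE 0.32). Its crushed samples had 2594, 1741, 1488, 1195 and 1868 and its contralateral samples 87.5, 112, 76.2, 80.7 and 58.7, with no overlap. Chaf1b, a subunit of the factor that loads histones on new DNA, had 3.86 (SE 0.29), and Mcm5 of the replicative helicase 3.11 (SE 0.29). Mcm5 stood at 113, 111, 76.6, 112 and 86.8 in contralateral and 1141, 869, 690, 659 and 986 in crushed samples, so that every crushed value was over 5-fold above every contralateral value. Cdt1, which loads that helicase at origins, had 3.06 (SE 0.21), and Rrm2, the regulated subunit of ribonucleotide reductase, 2.83 (SE 0.23). Some bright genes of the list were higher without reaching 2-fold. Pcna, the sliding clamp of the polymerases, went from 4264 ± 131 (SD, n = 5) to 7012 ± 627 (SD, n = 5) and had 0.71 (SE 0.07), higher in every pair. Mcm4 had 0.36 (SE 0.07) and Rpa1, a protein that covers single-stranded DNA, 0.42 (SE 0.11).

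The G1 phase genes that precede replication were mixed, with 9 of 20 called higher and 1 lower, against 7.02% and 2.48% of all genes. Ccne1, cyclin E, rose by 2.74 (SE 0.28), the transcription factor E2f1 by 2.31 (SE 0.29) and Myc by 1.82 (SE 0.25). The inhibitor Cdkn1a (p21) rose as well, by 1.16 (SE 0.17), while the inhibitor Cdkn1c (p57) had -1.03 (SE 0.20) and was lower in every crushed sample (231, 192, 299, 263 and 315) than in every contralateral sample (557, 584, 467, 551 and 464). The call of Cdkn1c was lost with a pseudocount, with the photoreceptor level as a covariate and without replicate 1 or 2. Ccnd1, cyclin D1, was bright on both sides and had -0.03 (SE 0.05).

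The promoters are shown because mitosis and replication genes both rose at 3 days and are known to be driven by different promoter elements. These elements are the cell cycle genes homology region (CHR) and the CCAAT box in mitosis and the E2F site in replication. RefSeq promoters of 300 bases (GRCm38.p6, 250 before and 50 after a start) were matched by symbol for 40 of the 47 mitosis and 35 of the 43 replication genes. Stretches from 200 bases before to 30 bases after the start are printed in the direction of transcription, with the letters of 3 elements on either strand in capitals. The CHR was searched as TTTGAA and also in the variant form TTTAAA. The CCAAT box was searched by its name, 5 letters. The E2F site was searched as TTCCCGC, and the other forms that were counted for it were TTGGCGC as well as the form TTCGCGC and also the form TTGCCGC. The first 4 are mitosis genes and the last 2 replication genes.
Plk1 (chr7:122159235-122159464, plus strand): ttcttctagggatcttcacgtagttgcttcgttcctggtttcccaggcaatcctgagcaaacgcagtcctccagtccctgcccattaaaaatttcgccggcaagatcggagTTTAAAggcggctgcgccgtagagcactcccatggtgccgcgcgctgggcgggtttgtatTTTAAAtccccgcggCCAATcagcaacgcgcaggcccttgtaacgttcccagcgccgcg
Ccnb2 (chr9:70421525-70421754, minus strand): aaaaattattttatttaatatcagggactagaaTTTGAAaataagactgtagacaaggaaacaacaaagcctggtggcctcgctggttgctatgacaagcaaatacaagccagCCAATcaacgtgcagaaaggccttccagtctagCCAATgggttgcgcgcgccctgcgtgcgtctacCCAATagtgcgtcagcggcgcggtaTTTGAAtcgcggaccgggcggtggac
Cdc20 (chr4:118437314-118437543, minus strand): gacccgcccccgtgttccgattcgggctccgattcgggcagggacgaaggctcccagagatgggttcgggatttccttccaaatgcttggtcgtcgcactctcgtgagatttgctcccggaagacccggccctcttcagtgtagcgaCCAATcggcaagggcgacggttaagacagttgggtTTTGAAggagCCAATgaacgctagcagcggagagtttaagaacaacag
Cdk1 (chr10:69352883-69353112, minus strand): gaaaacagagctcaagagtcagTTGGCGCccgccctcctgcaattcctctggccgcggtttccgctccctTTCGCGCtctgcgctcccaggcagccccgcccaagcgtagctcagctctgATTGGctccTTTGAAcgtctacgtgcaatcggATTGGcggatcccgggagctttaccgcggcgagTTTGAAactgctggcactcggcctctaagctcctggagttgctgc
Mcm5 (chr8:75109309-75109538, plus strand): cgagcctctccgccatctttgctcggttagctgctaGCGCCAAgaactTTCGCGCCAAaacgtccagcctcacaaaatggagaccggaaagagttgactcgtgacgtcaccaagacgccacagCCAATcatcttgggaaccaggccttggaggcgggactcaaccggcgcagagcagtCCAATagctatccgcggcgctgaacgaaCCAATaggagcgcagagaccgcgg
Mcm6 (chr1:128359676-128359905, minus strand): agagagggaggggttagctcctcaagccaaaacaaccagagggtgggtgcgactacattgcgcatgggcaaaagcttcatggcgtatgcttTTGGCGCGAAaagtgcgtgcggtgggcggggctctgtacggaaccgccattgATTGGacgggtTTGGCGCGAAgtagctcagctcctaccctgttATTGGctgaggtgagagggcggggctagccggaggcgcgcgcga
The 4 mitosis stretches hold CHR and CCAAT letters, and that of Cdk1 also holds E2F letters at 2 places. The Mcm5 and Mcm6 stretches hold E2F letters and also CCAAT letters, at 3 and 2 places, but no CHR letters. CHR letters were present in 34 of 45 promoters of mitosis genes (75.6%), in 9 of 42 of replication genes (21.4%) and in 27.6% of all 32851 promoters. CCAAT letters were present in 73.3%, 57.1% and 37.4%. E2F letters were present in 15.6%, 59.5% and 9.57%. CHR and CCAAT letters stood together in 60% of the mitosis, 14.3% of the replication and 10.7% of all promoters, and letters of different kinds overlapped in 4.44%, 4.76% and 0.651%. Genes with more than 1 start count more than once, and a match of letters is no evidence of a bound factor.

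**Figure D2:**
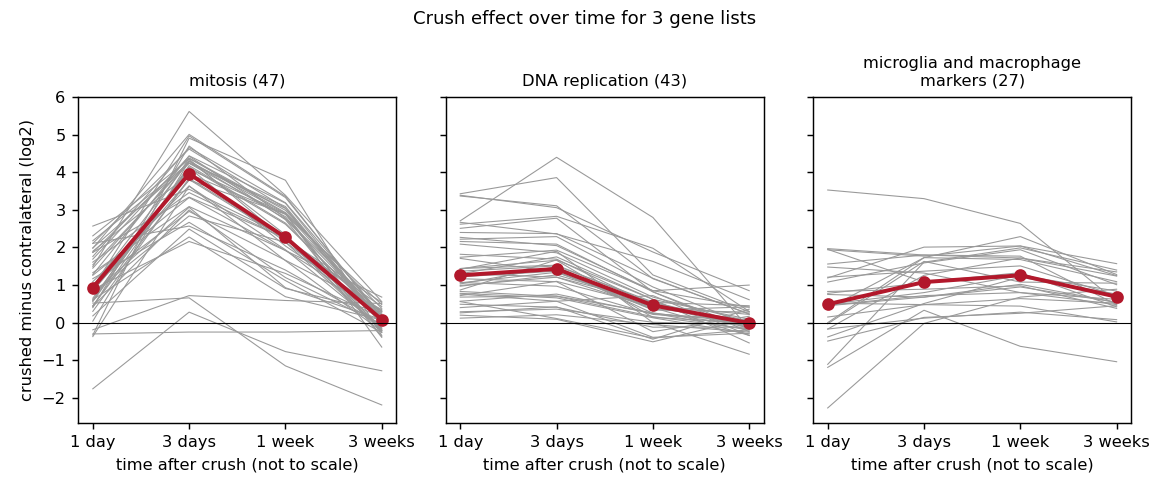
Log2 difference between crushed and contralateral samples at 1 day, 3 days, 1 week and 3 weeks (5 pairs each) for every tested member of 3 lists, in grey, with the median of the list in red. The mitosis median goes from 0.93 to 3.96, 2.27 and 0.08, the replication median from 1.26 to 1.43, 0.46 and -0.01, and the median of microglia and macrophage markers from 0.49 to 1.08, 1.26 and 0.69.

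The crush effect on most mitosis genes was higher at 3 days than at 1 day and at 1 week. Over all genes the effect of the crush was higher at 3 days than at 1 day for 484 genes (4.49%) and lower for 121 (1.12%), by a test of the difference itself in the same limma fit. Against 1 week it was higher for 245 (2.28%) and lower for 102 (0.947%). At the level of probe sets the split against 1 day was 753 higher and 199 lower, and 554 and 286 after the shift to a common median, and that against 1 week was 394 and 208, and 312 and 256. Both tests share the 3 day arrays, so they are not independent of each other. Of the 47 mitosis genes 42 were higher than at 1 day, 36 higher than at 1 week and 34 higher than at both, where 76 of all genes (0.706%) were higher than at both. Hmmr had 5.62 at 3 days, 1.49 at 1 day and 3.39 at 1 week. Its 3 day effect was thus 4.13 (SE 0.47) above that at 1 day and 2.23 (SE 0.47) above that at 1 week, the largest smaller difference of the 76. Iqgap3, a scaffold of dividing cells, Foxm1, the transcription factor of mitosis genes, Ckap2, Aurka, the Aurora kinase of spindle poles, and Cdca5, which protects sister chromatid cohesion, followed, with at least 2.04 above either time. Replication genes were timed otherwise. Only Tk1 of the 43 was higher than at 1 day, while 20 were higher than at 1 week, among them Chaf1b with 2.59 (SE 0.41) and Mcm5 with 1.94 (SE 0.41). Of the 76 genes, 41 were on neither list and 8 were not called at 3 days itself. Many of these 41 are also genes of cell division, Iqgap3 and Ckap2 among them. Others on neither list were Tubb3, the neuronal tubulin, and Vwf, the von Willebrand factor of endothelial cells. The 3 day effect of Vwf, 0.40 (SE 0.21), was not called on its own. A single gene, the eosinophil chemokine receptor Ccr3, was lower than at both times, and its intensity in crushed samples was only 16.2, 16.5, 51.8, 22.5 and 24.6.

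Myeloid genes were a further large group of rises. Of 27 markers shared by microglia and macrophages 15 rose and none fell, where 7.02% and 2.48% of all genes did. Their median was 1.08, and their summed intensity was 62000 to 79694 in contralateral and 113153 to 138271 in crushed samples. Msr1, a scavenger receptor, rose most, by 3.30 (SE 0.29). Cd68, a lysosomal glycoprotein of phagocytes, had 1770, 1864, 1205, 1341 and 1339 in contralateral and 6196, 4812, 5914, 6107 and 6963 in crushed samples, which did not overlap, and 2.01 (SE 0.16). Adgre1 (F4/80) had 1.73 (SE 0.13), Spi1, the transcription factor PU.1, 1.80 (SE 0.21), Itgb2, the beta chain of leukocyte integrins, 1.77 (SE 0.22) and Mrc1, the mannose receptor, 1.63 (SE 0.21). Ccr2, the chemokine receptor of inflammatory monocytes, had 135, 390, 149, 195 and 137 in contralateral and 3175, 2882, 2538, 2452 and 2642 in crushed samples. Its lowest crushed value was over 6-fold above its highest contralateral value, and the difference was 3.89 (SE 0.20) (limma, adjusted p = 5.8e-12). Ccr1, a receptor of inflammatory chemokines, rose by 2.54 (SE 0.21).

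Of 12 tested genes that microglia express at rest, 1 rose and 1 fell, where 7.02% and 2.48% of all genes did, and the median of -0.04 changed its sign with the samples left out. P2ry12, the ADP receptor of ramified microglia, had 1442, 1514, 1247, 1253 and 1356 in contralateral and 726, 561, 700, 661 and 766 in crushed samples, lower in each without overlap, with -1.0 (SE 0.15). That value is at the threshold, and the call was lost with a pseudocount, with array weights, with the photoreceptor covariate, against naïve samples and without replicate 2. Tmem119 had 0.03 (SE 0.17) and Cx3cr1, the fractalkine receptor, -0.02 (SE 0.24). Fcrls, an Fc receptor-like gene counted among the same microglial genes, went the other way, from 525, 649, 561, 570 and 734 to 3316, 2231, 4033, 4020 and 4383, with 2.54 (SE 0.23). Its effect had been -1.53 at 1 day, so that the 3 day effect was 4.07 (SE 0.33) above it. Trem2, a receptor for lipids and debris, moved likewise from -1.11 at 1 day to 1.61 at 3 days, a difference of 2.72 (SE 0.39). Aif1 (Iba1), the usual stain for microglia, had 0.51 (SE 0.22), Csf1r 0.14 (SE 0.13) and Ctss, the cathepsin S of microglia, 0.12 (SE 0.06), none of them called.

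Of 18 genes of Fc receptors, their signalling and the phagocyte oxidase 17 rose, against 7.02% of all genes, with none lower and a median of 1.62. Fgr, a kinase of myeloid cells, had 2.53 (SE 0.31), Syk, the kinase next to activating Fc receptors, 2.12 (SE 0.24) and Btk, a kinase of B cells and myeloid cells, 1.94 (SE 0.25). Cybb, the catalytic subunit of the oxidase, had 145, 182, 98.3, 100 and 118 in contralateral and 308, 236, 529, 448 and 318 in crushed samples and 1.5 (SE 0.23). The member that was not called was the phospholipase Plcg2, with 0.66 (SE 0.20). Genes by which phagocytes handle lipids rose in part, 8 of 18, against 7.02% of all genes. Apoc2, the cofactor of lipoprotein lipase, had 302, 341, 204, 189 and 151 in contralateral and 6521, 3757, 4470, 4653 and 7872 in crushed samples. The sides were separated by more than 10-fold, and the difference was 4.53 (SE 0.29). Lpl, the lipase itself, rose by 2.24 (SE 0.30), the fatty acid carrier Fabp4 by 4.23 (SE 0.77) and the scavenger receptor Cd36 by 1.99 (SE 0.38), while Apoe, among the brightest genes on both sides, had -0.24 (SE 0.10). Of 18 genes of alternative macrophage activation on the array 16 were tested and 9 rose, against 7.02% of all genes. The 7 that were not called had differences from -0.72 to 0.89. Beside Arg1, Chil3 had 66.8, 72.0, 37.6, 70.0 and 71.6 in contralateral and 3281, 3702, 909, 1942 and 2368 in crushed samples, with crushed sample 3 the lowest, and 5.15 (SE 0.49). Tgfb1 had 1.90 (SE 0.23), and Igf1, a growth factor outside this list that such macrophages release, had 2.41 (SE 0.22).

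**Figure D3:**
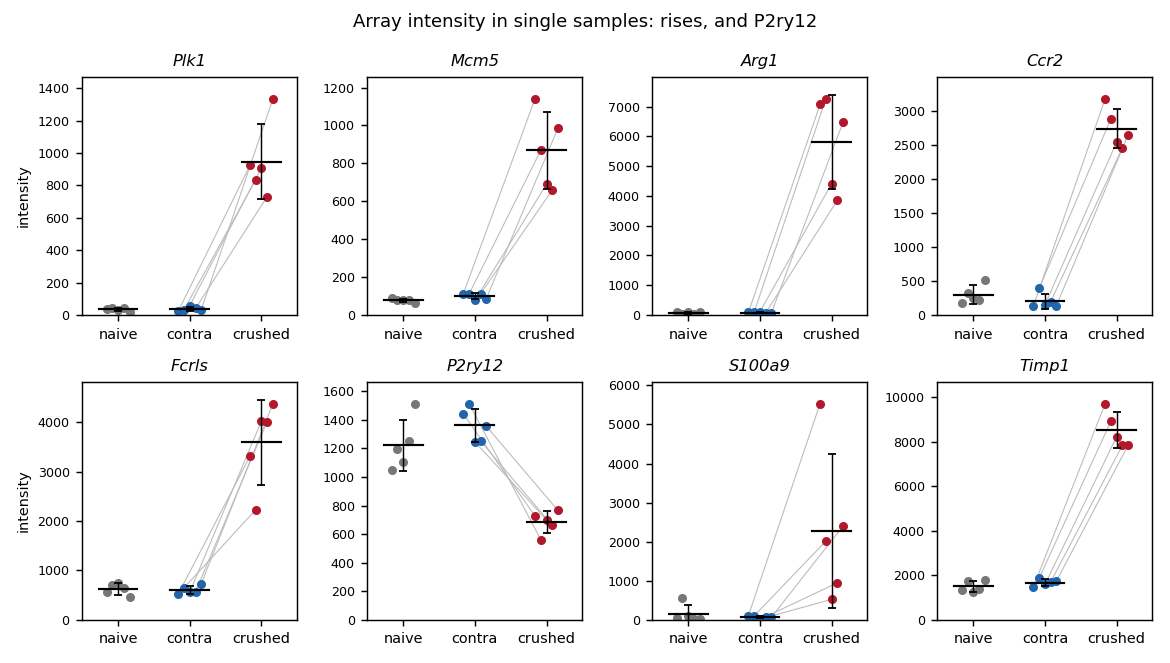
Intensity (linear, starting at 0) of 8 genes in 5 naïve, 5 contralateral and 5 crushed samples at 3 days. Points are samples, bars the mean and SD, and grey lines join crushed and contralateral samples with the same replicate number. For 7 genes all crushed points lie above all contralateral points, S100a9 also has a naïve sample among the range of the crushed ones, and P2ry12 is lower in all 5 crushed samples (561 to 766) than in the contralateral ones (1247 to 1514).

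Neutrophil genes rose in part, with a wide spread between samples. Of 15 on the array 7 rose, and 4 were too dim to be tested. The other 4 were tested and not called, with differences from -0.54 to 0.97. Members such as Mmp8, dim in controls, were tested only through the injured samples, so that the share called is no measure of the list. S100a9 had 108, 102, 16.4, 77.3 and 64.9 in contralateral and 5533, 2014, 523, 946 and 2398 in crushed samples, a difference of 4.70 (SE 0.55). Crushed sample 1 was the highest and sample 3 the lowest, over 10-fold apart. S100a8, its partner, followed the same order, with 5116, 2667, 580, 1221 and 3402 in crushed samples and 4.13 (SE 0.35). Lcn2, an iron-scavenging lipocalin of neutrophils and reactive astrocytes, had 8271, 8041, 7097, 7993 and 2510 in crushed against 645, 707, 393, 368 and 397 in contralateral samples, so that sample 5 stood apart from the other 4, and 3.69 (SE 0.38). Mmp8, the collagenase of neutrophil granules, was below 20 in all contralateral samples and stood at 231, 93.0, 268, 469 and 288 in crushed samples. Lymphocyte genes mostly were not called, where 7.02% of all genes rose. Of 15 T and NK cell genes Cd28 and Klrd1 rose, by 2.64 (SE 0.37) and 2.46 (SE 0.33), and of 5 B cell genes Cd79b rose by 1.76 (SE 0.26), from 40.1 ± 7.62 (SD, n = 5) to 139 ± 41.2 (SD, n = 5).

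Chemokines and cytokines rose in part. Of 30 chemokines tested 17 rose and 1 fell, against 7.02% and 2.48% of all genes. The effect on 7 was lower than at 1 day, against 1.12% of all genes, and on none higher. Ccl2, the main attractant of monocytes, had 122, 242, 212, 192 and 224 in contralateral and 3580, 2685, 1505, 1890 and 1898 in crushed samples and 3.51 (SE 0.54), and its neighbour Ccl7 3.49 (SE 0.48). The neutrophil attractants Cxcl1 and Cxcl2 rose by 2.31 (SE 0.44) and 1.88 (SE 0.46), but Cxcl2 had 6.33 at 1 day, so that its 3 day effect was lower, with a difference of -4.45 (SE 0.65). Ppbp, a chemokine of platelets, had 2.43 (SE 0.42). Cxcl10, an interferon-induced chemokine, had 6854, 4391, 2374, 4516 and 2459 in contralateral and 4874, 6819, 7590, 6019 and 1141 in crushed samples, which overlapped, and 0.23 (SE 0.52). Cxcl13, the attractant of B cells, fell. It had 2585, 1109, 535, 453 and 366 in contralateral and 93.4, 97.9, 161, 50.7 and 22.4 in crushed samples, a difference of -3.44 (SE 0.55) without overlap, and 496 ± 81.8 (SD, n = 5) in naïve samples. Of 25 acute cytokines and receptors 13 rose and none fell, against the same shares of all genes, and again the effect on 7 was lower than at 1 day. Il1rn, the antagonist of the interleukin 1 receptor, had 81.8 ± 27.9 (SD, n = 5) in contralateral and 1998 ± 565 (SD, n = 5) in crushed samples and 4.63 (SE 0.28), and Il1b, the agonist, 3.12 (SE 0.37). Il6 was below 20 in all contralateral samples and stood at 229, 145, 184, 129 and 95.2 in crushed samples. Tnf, tumor necrosis factor, had 51.7, 68.2, 55.2, 66.0 and 82.3 in contralateral and 87.2, 46.4, 49.8, 87.4 and 99.5 in crushed samples and 0.14 (SE 0.26), with overlap. Clcf1, a ligand of the CNTF receptor, had 1.49 (SE 0.23) at 3 days, 4.46 at 1 day and 0.07 at 1 week, lower than at 1 day with a difference of -2.98 (SE 0.32).

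Of 31 immediate early and stress genes 6 rose and none fell, against 7.02% and 2.48% of all genes. Fosl1, a partner of Jun in AP-1, had 420, 370, 130, 153 and 205 in crushed and 21.9, 22.7, 18.8, 16.3 and 15 in contralateral samples and 3.46 (SE 0.25). As 3 of the contralateral values were below 20, this difference and those between times are limited by the floor. Its effect was 6.16 at 1 day and 0.04 at 1 week, so that 3 days was lower than 1 day, with a difference of -2.71 (SE 0.35), and higher than 1 week, with 3.42 (SE 0.35). Fos had 0.24 (SE 0.14) and Jun 0.02 (SE 0.09). Of 25 interferon-stimulated genes none was called with contralateral samples as controls in limma, with 2 at an unadjusted p under 0.05, while 5 were called higher against naïve samples and 2 without replicate 2. Of 7 MHC class II genes 3 were called higher, but none after quantile normalization, after a shift to a common median, against naïve samples or without replicate 3. In limma none of 30 genes of oxidative phosphorylation, 25 of heat shock and the unfolded protein response and 10 of MHC class I was called, with 5, 14 and 0 at an unadjusted p under 0.05, and the differences of the 30 lay between -0.27 and 0.22.

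**Figure D4:**
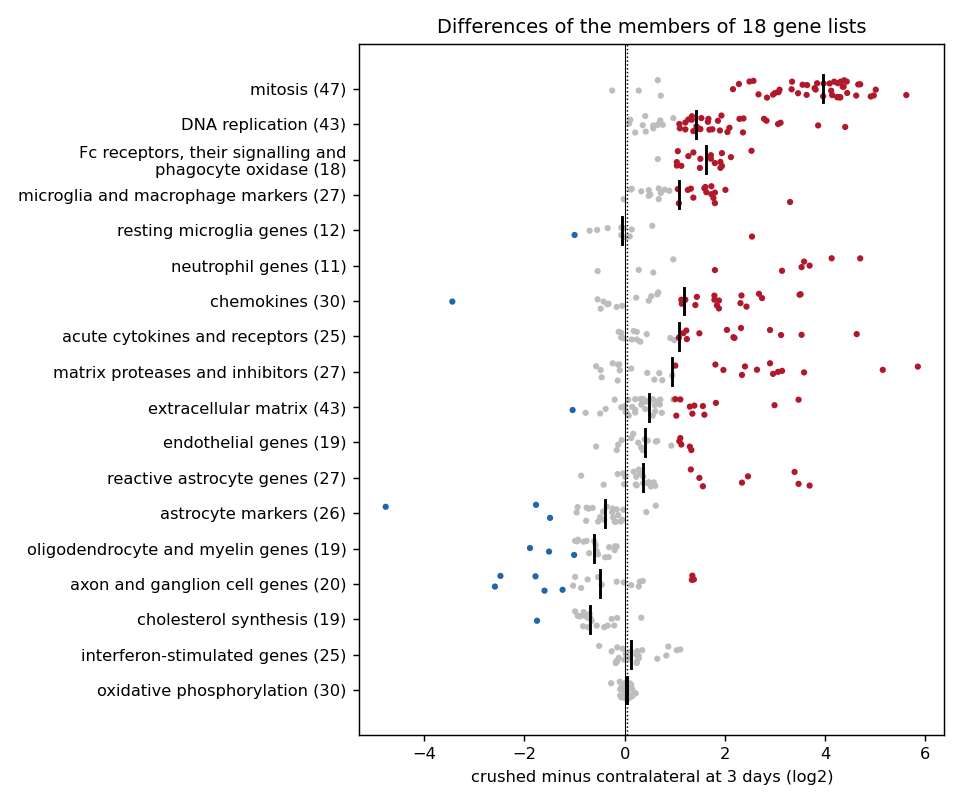
Log2 difference between crushed and contralateral samples at 3 days for the members of 18 gene lists, with the number tested in parentheses, members called higher in red, called lower in blue and not called in grey. Black bars are list medians (none is drawn for neutrophil genes), which run from 3.96 for mitosis to -0.70 for cholesterol synthesis, and the dotted line is the median of all genes.

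Genes of matrix turnover and wound repair rose in part. Of 27 matrix proteases and inhibitors 13 rose and none fell, where 7.02% and 2.48% of all genes did. Timp1, the inducible inhibitor of metalloproteases, had 1472, 1870, 1588, 1696 and 1742 in contralateral and 9708, 8918, 8218, 7834 and 7833 in crushed samples. Every crushed value was over 4-fold above every contralateral value, and the difference was 2.34 (SE 0.12) (limma, adjusted p = 5.7e-12). Timp2, the inhibitor that is expressed at rest, had -0.13 (SE 0.05). Mmp12, the elastase of macrophages, had 3.06 (SE 0.39), Mmp9, a gelatinase, 3.14 (SE 0.40), Plau, the urokinase that activates plasminogen, 2.90 (SE 0.25) and its receptor Plaur 2.96 (SE 0.20). Mmp3, stromelysin, had 1.81 (SE 0.50) against contralateral samples, and was not called against naïve samples, where it averaged 271. Of 43 genes of the extracellular matrix 11 rose and 1 fell, so that the share that fell was near that of all genes. Thbs1, a matrix protein that activates TGF-beta, had 217, 431, 358, 166 and 768 in contralateral and 4028, 3464, 3852, 3478 and 3800 in crushed samples, which left a wide gap, and 3.47 (SE 0.38). Fbln2, a fibulin of basement membranes, had 2.99 (SE 0.36), Tnc, tenascin C of injured glia, 1.56 (SE 0.13), and the collagen chains Col5a2 and Col4a1 1.59 (SE 0.15) and 1.30 (SE 0.17). Col1a1, the main collagen of the meninges, had 0.47 (SE 0.07), higher in every pair and under 2-fold. Bcan, the brevican of perineuronal matrix, fell, with -1.04 (SE 0.21), a call that was lost in 4 of the 16 other settings tried. Of 37 growth factors, their receptors and their binding or processing proteins 10 rose and 2 fell, against 7.02% and 2.48% of all genes. The count that fell was 4 after either other scaling and without replicate 3. Ereg, an EGF family ligand, had 684, 295, 386, 348 and 504 in crushed and 11.4, 26.8, 16.6, 15.3 and 34.0 in contralateral samples and 4.17 (SE 0.30), limited by the floor since 3 contralateral values were below 20. Inhba, the activin subunit, had 3.16 (SE 0.23), and Igf2, made by the meninges, 6897, 6688, 7079, 6988 and 5489 in contralateral and 2707, 2364, 2683, 1804 and 3075 in crushed samples, with -1.41 (SE 0.14), a fall. Hmox1, which degrades heme, rose from 452 ± 27.7 (SD, n = 5) to 4947 ± 599 (SD, n = 5), with 3.45 (SE 0.20), and Hp, which binds free hemoglobin, by 3.81 (SE 0.42), while Fth1 of ferritin had -0.09 (SE 0.05).

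Vessel genes rose in part. Of 19 endothelial genes 5 rose, against 7.02% of all genes, with a median of 0.40. The summed intensity was 40209 to 49979 in contralateral and 49175 to 70873 in crushed samples. Pecam1 (CD31), an adhesion protein of endothelium and of leukocytes, had 226, 387, 387, 307 and 389 in contralateral and 907, 626, 1345, 781 and 682 in crushed samples and 1.33 (SE 0.18). The others were Egfl7 with 1.30 (SE 0.16), Emcn with 1.13 (SE 0.21), Esam with 1.11 (SE 0.16) and the receptor Tie1 with 1.09 (SE 0.21). After a shift to a common median the calls of Emcn, Esam and Tie1 were lost. Those of Emcn and Tie1 were also lost against naïve samples, that of Emcn without replicate 1, and that of Tie1 after quantile normalization and without replicate 3. Cldn5, the claudin of the blood-brain barrier, had 0.62 (SE 0.15). Ackr1, a chemokine-binding protein of venules, rose by 1.87 (SE 0.26), and Aqp1, a water channel, by 2.40 (SE 0.41). Of 13 pericyte and smooth muscle genes limma called none, with 5 at an unadjusted p under 0.05.

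Of 26 astrocyte markers 3 fell (2.48% of all genes fell) and none rose, with a median of -0.39. In limma 14 were lower at an adjusted p under 0.05 whatever the fold, where 1713 of 10768 genes were, and 1 was higher. The count that fell was 5 after either other scaling and 5 and 6 without replicate 3 and 4. Their summed intensity was 137874 to 149527 in contralateral and 99595 to 135745 in crushed samples. Ntsr2, a neurotensin receptor of astrocytes, was the largest fall of all genes. It had 1670, 1539, 1444, 1976 and 1901 in contralateral and 78.3, 74.3, 82.9, 66.0 and 28.7 in crushed samples, with 1243 ± 134 (SD, n = 5) in naïve samples, and a difference of -4.77 (SE 0.22) (limma, adjusted p = 2.5e-12). Every crushed sample was thus over 15-fold below every contralateral sample. Acsbg1, an acyl-CoA synthetase of astrocytes, had -1.77 (SE 0.24) and Slco1c1, a thyroid hormone carrier, -1.49 (SE 0.22). Aqp4, the water channel of endfeet, had -0.77 (SE 0.12) and Gjb6 (connexin 30) -0.72 (SE 0.17), lower in every pair and under 2-fold, although a dimmer probe set of Aqp4 was called. Gfap, the intermediate filament of astrocytes, had 10457, 10053, 9879, 9386 and 10851 in contralateral and 9100, 10232, 10337, 11513 and 8714 in crushed samples, which overlapped, and -0.03 (SE 0.09). Vim had 0.01 (SE 0.06) and Nes, nestin, -0.01 (SE 0.18). Of 27 genes known from reactive astrocytes 8 rose, against 7.02% of all genes. They were Lcn2, Thbs1, Timp1, Tnc, Clcf1, Tgm1, B3gnt5 and Cd14, of which several are also made by myeloid cells. Agt, the angiotensinogen of astrocytes, was no member of these lists and fell from 2681 ± 573 (SD, n = 5) to 319 ± 102 (SD, n = 5), with -3.10 (SE 0.28).

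Oligodendrocyte and myelin genes were lower in all 19 cases, with a median of -0.61, and 17 had an adjusted p under 0.05 in limma. Only 3 also reached 2-fold, where 2.48% of all genes fell. The count was 6 after either other scaling and 5 without replicate 2 or 3. Fa2h, the hydroxylase of fatty acids in myelin lipids, had 4421, 3524, 2617, 3619 and 3689 in contralateral and 707, 1220, 1009, 1124 and 803 in crushed samples and -1.89 (SE 0.27). Aspa, the aspartoacylase of oligodendrocytes, had -1.51 (SE 0.16), and the transcription factor Olig1 -1.01 (SE 0.25), a call that was lost in 5 of the 16 other settings. Mbp had -0.20 (SE 0.08) and Mog -0.71 (SE 0.24). For Mbp the brightest probe set stands for 8, whose differences ranged from -1.70 to 0.76 with 1 of them called lower. Of the 10 genes of oligodendrocyte precursors Cspg5, a neuroglycan, and C1ql1, a secreted protein of precursors, fell, with -1.67 (SE 0.23) and -1.24 (SE 0.20). This precursor list was split, with positive differences for 5 of the 10 genes, none of them called, and a median of -0.16. Genes of cholesterol synthesis were lower in 18 of 19 cases, with a median of -0.70. Lss, lanosterol synthase, had 1128, 1217, 1049, 1245 and 1268 in contralateral and 269, 487, 335, 350 and 342 in crushed samples and was the sole member called, with -1.75 (SE 0.14), where 3 and 4 were called after quantile normalization and a shift to a common median and 3 without replicate 2. Hmgcs1, the entry enzyme of the pathway, had -0.41 (SE 0.05).

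Axon genes moved in both directions. Of 20 genes of axons and ganglion cells 5 fell and 3 rose, against 2.48% and 7.02% of all genes. Sptbn4, the spectrin of nodes of Ranvier, had 2338, 2422, 2237, 2404 and 2407 in contralateral and 556, 667, 395, 255 and 246 in crushed samples and -2.59 (SE 0.24). Nefh, the heavy neurofilament chain, had 1482, 1619, 1929, 1941 and 1697 in contralateral and 540, 1012, 532, 306 and 353 in crushed samples and -1.78 (SE 0.31). Rph3a, a protein of synaptic vesicles, had -2.48 (SE 0.24), Kif5a, a motor of axonal transport, -1.60 (SE 0.19) and Nefm, the medium chain, -1.24 (SE 0.48), a call lost in 6 other settings. Nefl, the light chain, had 238, 1230, 351, 266 and 292 in crushed and 563, 856, 981, 871 and 689 in contralateral samples and -1.03 (SE 0.65). Crushed sample 2 had the highest value of Nefl, Nefm, Nefh, Rph3a and Sptbn4 among the crushed samples, and the highest level of the photoreceptor genes. With the photoreceptor level as a covariate the calls of Sptbn4, Nefh, Rph3a, Kif5a and Nefm were kept. The effects on Sptbn4 and Nefh were lower at 3 days than at 1 day, with differences of -2.37 (SE 0.34) and -1.93 (SE 0.44). They were higher than at 1 week, where the effects themselves were -6.22 and -4.94, with differences of 3.63 (SE 0.34) and 3.15 (SE 0.44). The 3 that rose were Thy1, a surface protein of neurons and other cells, with 1.38 (SE 0.17), Stmn2, a microtubule regulator of growing axons, with 1.34 (SE 0.29), and Tubb3 with 1.35 (SE 0.23). Tubb3 had 663, 605, 839, 1113 and 984 in contralateral and 2055, 2204, 1700, 1764 and 2901 in crushed samples. No crushed value of Tubb3 overlapped the contralateral ones, and its effect was higher at 3 days than at 1 day by 1.37 (SE 0.33) and than at 1 week by 1.78 (SE 0.33). Gap43, a protein of growth cones, had -0.74 (SE 0.23), lower in every pair and not called, and Uchl1, a ubiquitin hydrolase of neurons, 0.36 (SE 0.09).

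**Figure D5:**
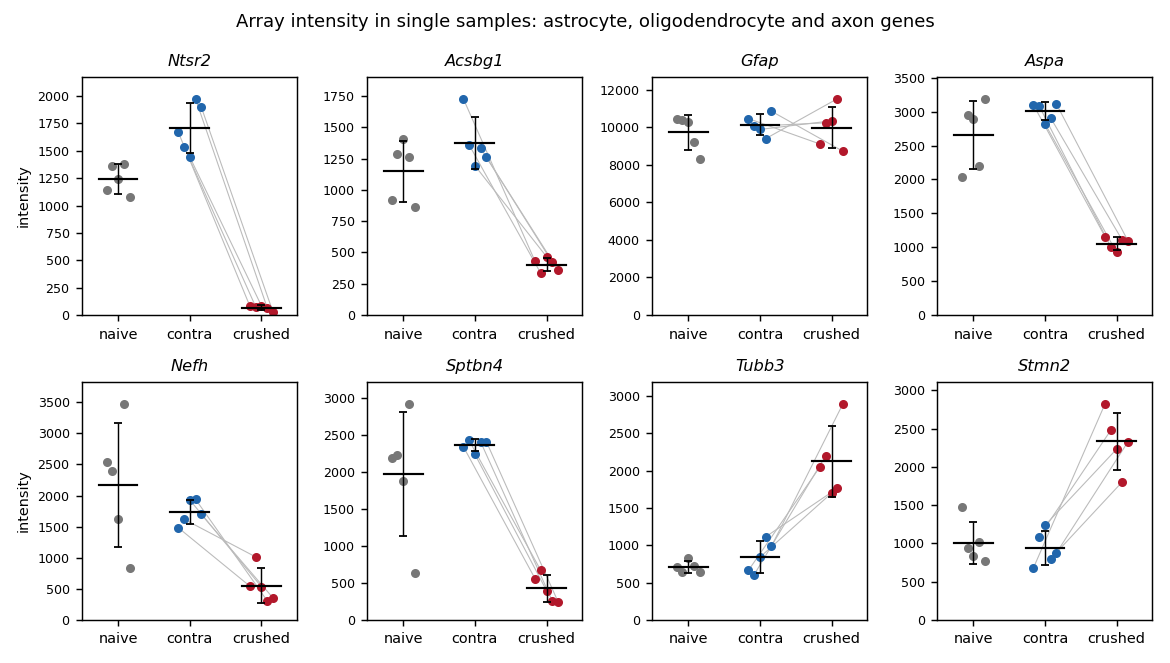
Intensity (linear, starting at 0) of 8 glial and axonal genes in 5 naïve, 5 contralateral and 5 crushed samples at 3 days. Single samples are points, bars give the mean and SD, and grey lines join crushed and contralateral samples with the same replicate number. Against contralateral samples, Ntsr2, Acsbg1, Aspa, Nefh and Sptbn4 are low and Tubb3 and Stmn2 high in all 5 crushed samples, and Gfap overlaps. The lowest naïve samples of Nefh and Sptbn4 lie within the range of the crushed ones.

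Further large falls were found outside these groups. Igfbpl1, which binds insulin-like growth factors, had 2502, 2448, 1874, 2024 and 2382 in contralateral and 297, 166, 292, 500 and 123 in crushed samples and -3.19 (SE 0.35). Orm3, an acute phase protein, had -3.32 (SE 0.37), Clec3b, tetranectin, -3.15 (SE 0.31), and Rbp4, the carrier of retinol, -2.84 (SE 0.26). The intensities of Rbp4 were 1170, 1342, 1032, 1204 and 923 in contralateral and 172, 109, 130, 256 and 152 in crushed samples, without overlap. Slc2a5, a fructose carrier of microglia, had -2.70 (SE 0.19), with crushed values of 18.6, 22.5, 20.2, 33.6 and 14.3 near the floor, so that its fall is understated. Slc47a1, an exporter of organic cations, had -2.54 (SE 0.37) at 3 days and 1.39 at 1 week, and Ecel1, an endopeptidase of injured neurons, -2.40 (SE 0.31). The next 2 counts stand beside the 2.48% of all genes that fell. Of 27 genes of drug and glutathione metabolism 3 fell, all of them cytochromes P450, among them Cyp4f15 with -1.85 (SE 0.25) and Cyp2d22 with -1.45 (SE 0.18). Of 18 genes of gap junctions, channels and ion transport, Gjc3 (connexin 29) and the axonal potassium channel Kcna1 fell, with -1.11 (SE 0.31) and -1.09 (SE 0.17), and Aqp1 rose. Both falls were no longer called against naïve samples, nor that of Gjc3 without replicate 5.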

How the data were processed

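RNA of pooled optic nerve heads was amplified with the NuGEN Ovation V2 system and hybridised to single-colour arrays. The deposited intensities were made by the authors in DChip (version not given in the sources used here), with invariant set normalization and a model of the difference between perfect match and mismatch probes; the arrays from naïve to 3 weeks were normalized together and are linear intensity values, so a probe set can stand at or below background. The number of arrays limits the precision. The 3 month samples were a separate batch and were not used here.

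From the deposited intensity table, 64 control probe sets were removed from 22690. Of the other 22626, 20380 carried 1 gene symbol, 691 several and 1555 none in the platform annotation, giving 12393 genes. Intensities were floored at 20 and log2-transformed, and 19313 probe sets that reached 50 on at least 5 of the 40 arrays were tested with limma 3.58.1 in R 4.3.3 (lmFit, eBayes with trend), with a crush term for each time and the pair as a block. P-values were adjusted by Benjamini-Hochberg over all tested probe sets, and the model was tested on simulated data. Pairs of left and right eyes come from the design. Same-numbered samples were taken to be from the same mice, which the labels do not state. The correlations of their deviations from the group means were 0.24, -0.26, -0.30, 0.14 and -0.20. Differences between times were contrasts of the same model.

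The members and the 47 gene lists (893 of 997 genes on the array) were chosen with earlier results of these data known. Genes were named by a rule. It took the 12 largest rises and 12 largest falls with 1 sign in 5 of 5 pairs, up to 6 called and 3 bright uncalled members of each list, the 10 highest and 10 lowest effects against both neighbouring times, and the genes of 2 lists named in the study. Bcan, Cdc20, Cdk1, Cdkn1c, Clcf1, Cldn5, Col1a1, Col4a1, Cxcl1, Cxcl2, Cybb, Fos, Gap43, Jun, Kif4, Mcm6, Mki67, Mmp3, Mrc1, Nefl, Nefm, Plau, Stmn2, Tmem119, Trem2 and Vwf fall outside it, their choice being made once the values had been seen. The alternatives changed the scaling, floor, filter, block, weights, covariate, samples, controls, test and probe set of a gene. Tables and plots were made with the R package data.table (version 1.17.8), Python 3.11.15, numpy 2.4.6, pandas 2.3.3, scipy 1.17.1 and matplotlib 3.10.9.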

Additional observations from a re-analysis of the deposited data

Results flagged for a closer look

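For 184 genes named in the text, the highest or lowest sample stood apart from the other 4 in 21 of 368 groups of 5 (5.71%) by Dixon's criterion of 0.71, where chance gives about 1 in 20. Among crushed samples, sample 5 was the lowest for Ntsr2 (28.7), Mcm4 (3555), Lcn2 (2510) and Cxcl10 (1141) and the highest for Apoe (8736) and Slc22a6 (1610). Crushed sample 3 was the lowest for Serpinb2 (94.1) and the highest for Ccr3 (51.8). Crushed sample 2 was the highest for Nefl (1230) and the lowest for Tlr7 (415), sample 1 the highest for Clcf1 (637) and sample 4 the highest for Slc2a5 (33.6). Among contralateral samples, sample 5 was the highest for Mcm4 (3411) and Iqgap3 (56.5) and the lowest for Igf2 (5489), sample 4 the highest for Adam8 (36.3) and the lowest for Mmp3 (30.1), sample 3 the lowest for Chil3 (37.6) and S100a8 (75.0) and the highest for Pvalb (1617), and sample 1 the lowest for Mrc1 (615).

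The effect of the crush at 3 days differed from that at another time, by a limma contrast of the 2 effects on the log2 scale, for 11 genes whose differences are given in the text. Against 1 day the 3 day effect was higher for Hmmr (4.13), Fcrls (4.07), Trem2 (2.72) and Tubb3 (1.37), and lower for Cxcl2 (-4.45), Clcf1 (-2.98), Fosl1 (-2.71), Sptbn4 (-2.37) and Nefh (-1.93). Against 1 week it was higher for Sptbn4 (3.63), Fosl1 (3.42), Nefh (3.15), Chaf1b (2.59), Hmmr (2.23), Mcm5 (1.94), Tubb3 (1.78) and Clcf1 (1.42).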

How the results depend on the processing

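The count of called probe sets (1274 higher and 424 lower) changed by over 1.5 times under 1 alternative, the 3 criteria of the study's methods applied to linear values, which left 886 (747 higher and 139 lower). With no replicate block for the pairing of eyes, 1275 were higher and 423 lower, 754 and 205 against 1 day and 398 and 225 against 1 week, and it changed no other call among the genes named. When 1 pair was left out at a time, 1531 to 1937 were called (1153 to 1439 higher and 378 to 498 lower), 775 to 1013 against 1 day (612 to 823 higher and 163 to 230 lower) and 466 to 559 against 1 week (288 to 385 higher and 152 to 204 lower). The counts higher and lower were 1150 and 386 with a floor of 50, 1141 and 353 with a pseudocount of 16, 1271 and 420 with no filter, 1058 and 366 with a filter at 200, 1263 and 401 with array weights, 1282 and 433 with the photoreceptor covariate, 1278 and 427 with only the 10 arrays at 3 days, and 1340 and 441 with naïve arrays as controls. Of 147 called genes named in the text, none changed sign in any of these settings. The number that lost its call was 9 with naïve controls, 6 after the shift to a common median and without replicate 1, and 5 or fewer elsewhere, 0 with a floor of 50. With a filter at 200, 142 of the 147 remained to be tested and kept their call. With the most variable probe set of a gene in place of the brightest, 6 astrocyte and 7 myelin genes fell in place of 3 and 3, 7 genes of the integrin and annexin list rose in place of 3, and 4 glial markers of the study fell in place of 1. Probe sets near the floor of 20 have compressed differences, and 10.5% of the values at 3 days were at or under it.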

Other observations

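The smaller gene groups are given beside the 7.02% of all genes that rose and the 2.48% that fell. Of 17 complement genes and receptors 6 rose and none fell, with a median of 0.30. Cfp, properdin, which stabilises the alternative pathway convertase, had 212, 307, 197, 221 and 177 in contralateral and 3074, 2254, 2129, 1728 and 3298 in crushed samples, without overlap, and 3.47 (SE 0.30). Cfi, a protease that cuts C3b, had 2.64 (SE 0.28), and the receptors of the anaphylatoxins, C5ar1 and C3ar1, had 2.47 (SE 0.28) and 2.25 (SE 0.14). After the shift to a common median 2 complement genes were called lower. Of 18 Toll-like receptors and adaptors 6 rose, among them Tlr1 with 2.23 (SE 0.25) and Tlr7 with 1.65 (SE 0.27). Of 27 lysosomal genes 5 rose. Acp5, the tartrate-resistant acid phosphatase of macrophages and osteoclasts, had 61.6, 97.1, 91.3, 77.9 and 72.6 in contralateral and 1728, 530, 1653, 994 and 2551 in crushed samples and 4.05 (SE 0.41), so that crushed sample 2 was the lowest and still above every contralateral sample. Gla, the alpha-galactosidase, had 1.83 (SE 0.20), but a dimmer probe set of it had -0.16 and was not called. Of 27 genes of integrins, annexins, galectins and related proteins 3 rose, a share near that of all genes. They were Itgax, Itga5 and Itgb7, with 1.93 (SE 0.38), 1.58 (SE 0.19) and 1.12 (SE 0.30), and the call of Itgb7 was lost after either other scaling, with a pseudocount and without replicate 3. Of 17 genes of heme and iron 4 rose, Hmox1, Hp, Lcn2 and Slc11a1, and of 12 chemokine receptors 3, Ccr1, Ccr2 and Ackr1.

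In other groups 1 to 3 members were called. Of 7 Schwann cell genes Egr2 rose, with 2.28 (SE 0.30), and Ngfr, the low-affinity neurotrophin receptor, fell from 1170 ± 156 (SD, n = 5) to 443 ± 135 (SD, n = 5), with -1.45 (SE 0.22). The median of the 7 was -0.09, and Egr2 is also on the lists of alternative macrophage activation and of immediate early and stress genes. Of 14 genes of meningeal fibroblasts Igf2 and the organic anion carrier Slc22a6 fell, the latter with -1.36 (SE 0.29). Of 21 genes of glycolysis and hypoxia Car9, a carbonic anhydrase, and Slc16a3, a lactate carrier, rose, with 1.92 (SE 0.33) and 1.15 (SE 0.22), while Adm, adrenomedullin, fell, with -1.38 (SE 0.29), shares near those of all genes. Of 23 genes of ribosome biogenesis Myc alone rose, but 21 differences were positive, with a median of 0.42. In limma 15 of the 23 were higher at an adjusted p under 0.05 whatever the fold, where 2754 of 10768 genes were. After quantile normalization 19 differences were positive, and 19 after the shift to a common median. Of 7 skeletal muscle genes Pvalb, parvalbumin, fell, with -1.75 (SE 0.40). Limma called none of 8 pigment cell genes, with 1 at an unadjusted p under 0.05. The 6 tissue remodelling genes named in the study (Mmp9, Timp1, Lamb1, Tnc, Thbs1 and Tgfb1) rose, with a median of 2.12, and Lamb1, a laminin chain, had 1.35 (SE 0.16). Of 15 glial markers named there Cd68 and Itgam rose, Itgam by 1.08 (SE 0.19), and the neuronal adhesion gene Astn1 fell, with -1.09 (SE 0.22). The call of Itgam was lost after either other scaling and with a pseudocount, and that of Astn1 with array weights and without replicate 1 or 5. Both lists were chosen in the study on these samples, so their counts are not independent evidence of a direction.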
